A study of Mus musculus with 6 samples.

Results

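Of the 94 protein-coding genes of the mouse count table whose symbol begins with Kcn, the prefix of potassium channel genes, 45 were expressed in cultured granulosa cells, counting as expressed a gene with at least 30 reads summed over the 6 libraries. The whole table held 55860 rows, of which 16701 reached 30 reads. Of the other Kcn genes, 35 had reads below that threshold and 14 had none. Just inside the threshold lay Kcnq1 with 35 reads, Kcnj16 with 34 and Kcnj14 with 31, and just outside it Kcnb2 with 24, Kcnk4 with 23 and Kcne2 with 21. The rule used the pooled depth of both genotypes and not the difference between them.

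The libraries were made from ovarian granulosa cells, the somatic cells that surround the oocyte, of Il22r-/- mice (3 libraries) and of Il22r+/+ mice (3 libraries). Both groups were isolated on a density gradient and kept for 12 h in DMEM-F12 medium with fetal bovine serum and antibiotics before total RNA was taken. The labels give no strain, age, targeting method or hormone treatment, and do not say whether libraries of a genotype came from separate animals, so that p-values measure the spread between these libraries, which may be technical. The series is titled for interleukin-22, STAT3 signalling and ovulation in polycystic ovary syndrome. The question asked of the channel genes here is which of them differed between cells with and without the receptor.

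Potassium channels are membrane pores that let potassium ions leave or enter the cell and so hold or restore the resting membrane potential. Voltage-gated pores open on depolarisation, calcium- and sodium-activated pores open when those ions rise inside the cell, inward rectifiers pass current near rest, and two-pore-domain channels carry background current. Small auxiliary subunits set where, how fast and how strongly the pores open. In granulosa cells potassium currents and the membrane potential have been studied alongside hormone-stimulated steroid production.

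The Il22r-/- libraries held 14.95 to 18.12 M gene reads (M, mega-reads), replicate 3 being the shallowest, and the Il22r+/+ libraries 17.43 to 17.7 M. Libraries of Il22r-/- differed more from each other than those of Il22r+/+. The chi-square of the counts, averaged over tested genes, was 10.2 to 27 between pairs of Il22r-/- libraries and 4.66 to 6.63 between pairs of Il22r+/+ libraries. The test fitted 1 spread per gene for both genotypes. Il22ra1, which encodes the interleukin-22 receptor chain, had 5, 2 and 0 reads in Il22r-/- and 1, 5 and 4 reads in Il22r+/+, too few to check the genotype labels. All 12 granulosa cell markers examined, among them Inha, Foxl2 and Cyp11a1, passed the filter on low counts, and their summed level was 10312 to 11210 CPM in Il22r-/- and 8476 to 9659 CPM in Il22r+/+ (CPM, read count scaled to the normalised library total), with 6 called higher and 3 lower. Markers of other cell types were called as well. Among all 15227 genes tested 45.7% were called, 23.6% higher and 22.1% lower, and the short lists are too few to set beside these shares. The 11 macrophage and leukocyte markers summed to 61.4, 89.0 and 30.02 CPM in Il22r-/- replicates 1 to 3 and to between 10.7 and 13.7 CPM in Il22r+/+, with 9 of 10 tested called higher. The 10 smooth muscle and pericyte markers summed to 369.5, 602.5 and 589.8 CPM in Il22r-/- and to between 291 and 345 CPM in Il22r+/+, with 5 of 9 tested called higher and 2 lower. The 9 ovarian surface markers summed to 183 to 200 CPM in Il22r-/- and 550 to 556 CPM in Il22r+/+, with 6 of 9 called lower. Of the 9 theca and stroma markers 1 of 6 tested was called higher and 1 lower (sums of 164 to 283 CPM in Il22r-/- and 360 to 454 CPM in Il22r+/+), and of the 8 endothelial markers 2 of 4 were higher and 1 lower (7.16 to 11.6 CPM in Il22r-/- and 6.74 to 8.94 CPM in Il22r+/+). Neither of 2 tested oocyte markers was called, no erythroid marker had enough reads to test and 4 globin genes had none. Each other list had a read for every marker in at least 1 library except the neuron and glia list, in which Nefl and Sox10 had none. The 11 neuron and glia markers summed to 54.8 to 82.5 CPM in Il22r-/- and 79.5 to 87.2 CPM in Il22r+/+, with 2 of 4 tested called higher and 2 lower. In these bulk libraries fewer cells of a type and less RNA per cell cannot be told apart.

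Among the potassium channel genes, Kcnq5, Kcnk2, Kcnj3 and Kcnn2 were higher in Il22r-/- cells and Kcnh2, Kcnh7 and Kcnd1 were lower. Of the 45 expressed members, 36 passed the filter on low counts and were tested, and 19 of these 36 were called in edgeR's quasi-likelihood test at an adjusted p under 0.05, which is 52.8%. Among all 15227 genes tested 45.7% were called, so the members' share lay close to the background. Higher in Il22r-/- were 11 members, against a background of 23.6% of all genes, and lower were 8, against 22.1%. The sizes were further from the background than the counts. Called with at least a 2-fold difference were 15 of 36 members, or 41.7%, against 14.3% of all genes, and the median absolute log2 fold change was 0.91 in the members and 0.36 in all tested genes. The members also had a lower median level, 3.02 CPM against 21.99 CPM in all tested genes, and folds of low genes vary more. Of the called members, Kcnj3, Kcnh8, Kcnn2 and Kcnt1 had too few Il22r+/+ reads to pass the filter without the Il22r-/- libraries. Kcnip2 and Kcnn3 had too few Il22r-/- reads to pass it without the Il22r+/+ libraries. A large fold was thus built in or favoured for these genes. Neither the 2-fold shares nor the medians were compared at matched levels, so they do not set the family apart from other genes of low level. The signed median log2 fold change was 0.28 in the members and 0.03 in all tested genes. Left out in turn, the 6 libraries gave 16 to 23 called of 38 to 42 tested members, against 34.4% to 52.6% of all genes. Of these called members 5 to 8 were lower, with 5 without Il22r-/- replicate 1, Il22r+/+ replicate 1 or Il22r+/+ replicate 3. In 20 of 36 members the 3 libraries of a genotype did not overlap those of the other, which is 55.6%, against 56% of all tested genes.

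**Figure D1:**
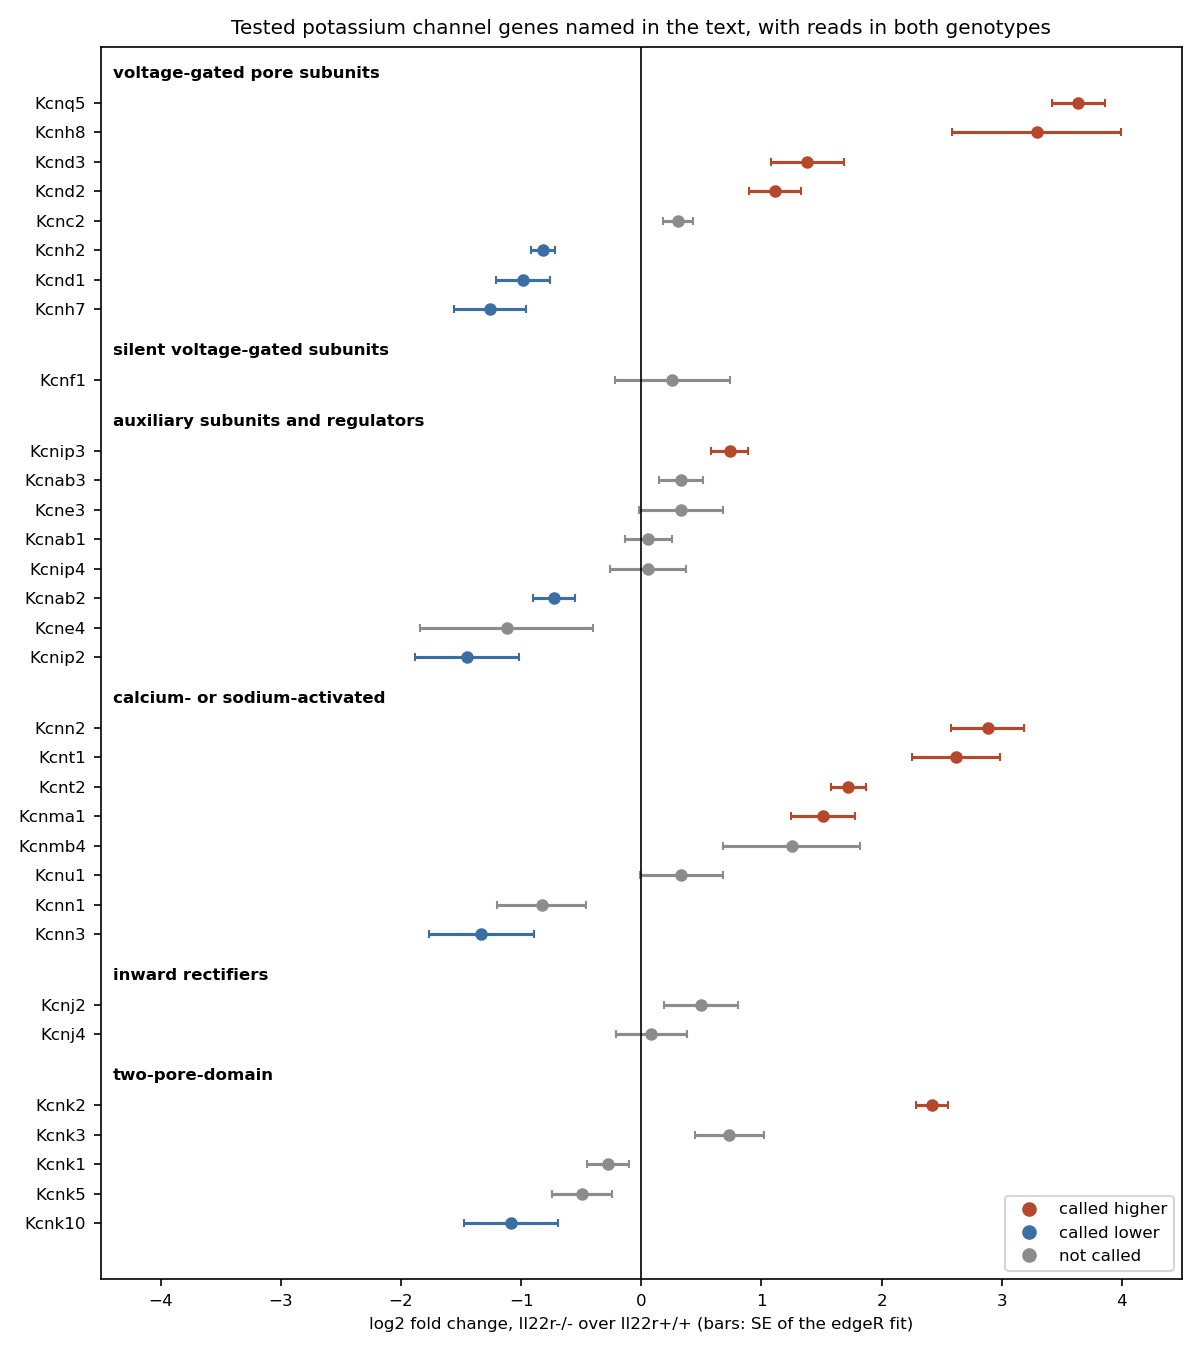
Log2 fold change (Il22r-/- minus Il22r+/+, x axis) of each tested potassium channel gene named in the text with reads in both genotypes (y axis), which leaves out Kcnj3, grouped by family, with bars of 1 standard error from edgeR. Called members lie on both sides of 0 in the voltage-gated family, and in the calcium- or sodium-activated family 4 of 5 called members are higher.

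The sequences directly upstream of 5 genes are shown because they belong to called members of at least 1 CPM whose RefSeq promoter window ends at the annotated gene start. Each is the 250 bases before the start on the gene's own strand, written 5′ to 3′, from RefSeq on GRCm38.p6. Capitals mark a match on either strand to 1 of 5 motifs. The motifs searched were the TATA box with the letters TATAAA, the GC box bound by Sp1 with the letters GGGCGG, the cyclic AMP response element TGACGTCA, the STAT site TTCNNNGAA and the site of the nuclear receptors encoded by Nr5a1 and Nr5a2, CAAGGTCA.
Kcnj3 (chr2:55435720-55435969, plus strand): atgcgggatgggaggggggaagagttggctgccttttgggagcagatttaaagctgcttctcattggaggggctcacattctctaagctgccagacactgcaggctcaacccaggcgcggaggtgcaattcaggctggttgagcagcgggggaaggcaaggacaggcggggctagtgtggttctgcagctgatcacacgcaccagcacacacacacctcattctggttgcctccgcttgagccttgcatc
Kcnk2 (chr1:189402274-189402523, minus strand): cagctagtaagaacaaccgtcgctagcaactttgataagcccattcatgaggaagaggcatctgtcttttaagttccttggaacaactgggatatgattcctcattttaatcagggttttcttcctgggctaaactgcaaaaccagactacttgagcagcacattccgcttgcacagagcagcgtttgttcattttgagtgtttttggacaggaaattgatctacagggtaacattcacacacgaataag
Kcnq5 (chr1:21961943-21962192, minus strand): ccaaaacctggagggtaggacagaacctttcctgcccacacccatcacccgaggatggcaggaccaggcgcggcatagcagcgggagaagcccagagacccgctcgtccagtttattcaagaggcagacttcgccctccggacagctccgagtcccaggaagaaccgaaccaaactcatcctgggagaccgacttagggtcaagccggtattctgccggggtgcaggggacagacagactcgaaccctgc
Kcnip3 (chr2:127522095-127522344, minus strand): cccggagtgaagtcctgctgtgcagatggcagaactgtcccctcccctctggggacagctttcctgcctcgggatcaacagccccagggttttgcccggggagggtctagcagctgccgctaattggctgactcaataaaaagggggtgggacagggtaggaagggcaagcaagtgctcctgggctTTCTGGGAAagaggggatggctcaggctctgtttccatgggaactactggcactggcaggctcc
Kcnh7 (chr2:63184288-63184537, minus strand): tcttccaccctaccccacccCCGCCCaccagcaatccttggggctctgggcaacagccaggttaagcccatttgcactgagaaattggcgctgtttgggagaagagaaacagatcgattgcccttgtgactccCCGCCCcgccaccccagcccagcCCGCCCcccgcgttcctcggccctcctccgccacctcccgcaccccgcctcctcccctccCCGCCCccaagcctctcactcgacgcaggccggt

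The windows of Kcnj3, Kcnk2 and Kcnq5, all higher in Il22r-/- cells, held none of the 5 motifs. The Kcnip3 window held 1 STAT site and the Kcnh7 window 4 GC boxes, read as CCGCCC on the strand shown. CpG dinucleotides numbered 7 in the Kcnj3 window, 5 in Kcnk2, 14 in Kcnq5, 4 in Kcnip3 and 16 in Kcnh7, against a median of 6 over 32817 windows of the same length. Of the 34 expressed members with a window, 16 held a GC box, 3 a STAT site, 1 the CAAGGTCA site and none a TATA box or a TGACGTCA element. Among all 32817 windows the GC box stood in 32.7%, the STAT site in 7.01%, the CAAGGTCA site in 1.33%, the TATA box in 12.4% and the TGACGTCA element in 1.55%. A GC box was present in 3 of 9 windows of members called higher and in 5 of 6 of members called lower, and a STAT site in 1 of 9 and 0 of 6. These counts took for each member the window nearest its annotated start, while the 32817 windows were all counted. Some of the nearest windows lay far from that start. That of Kcnh2, 1 of the 5, lay 22013 bases away and that of Kcnma1, 1 of the 3, lay 10286 bases away. A match describes letters only. Kcnk2 has 4 windows, Kcnip3 has 3 and Kcnq5 has 2 in the same table, and 1 of each is shown.

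**Figure D2:**
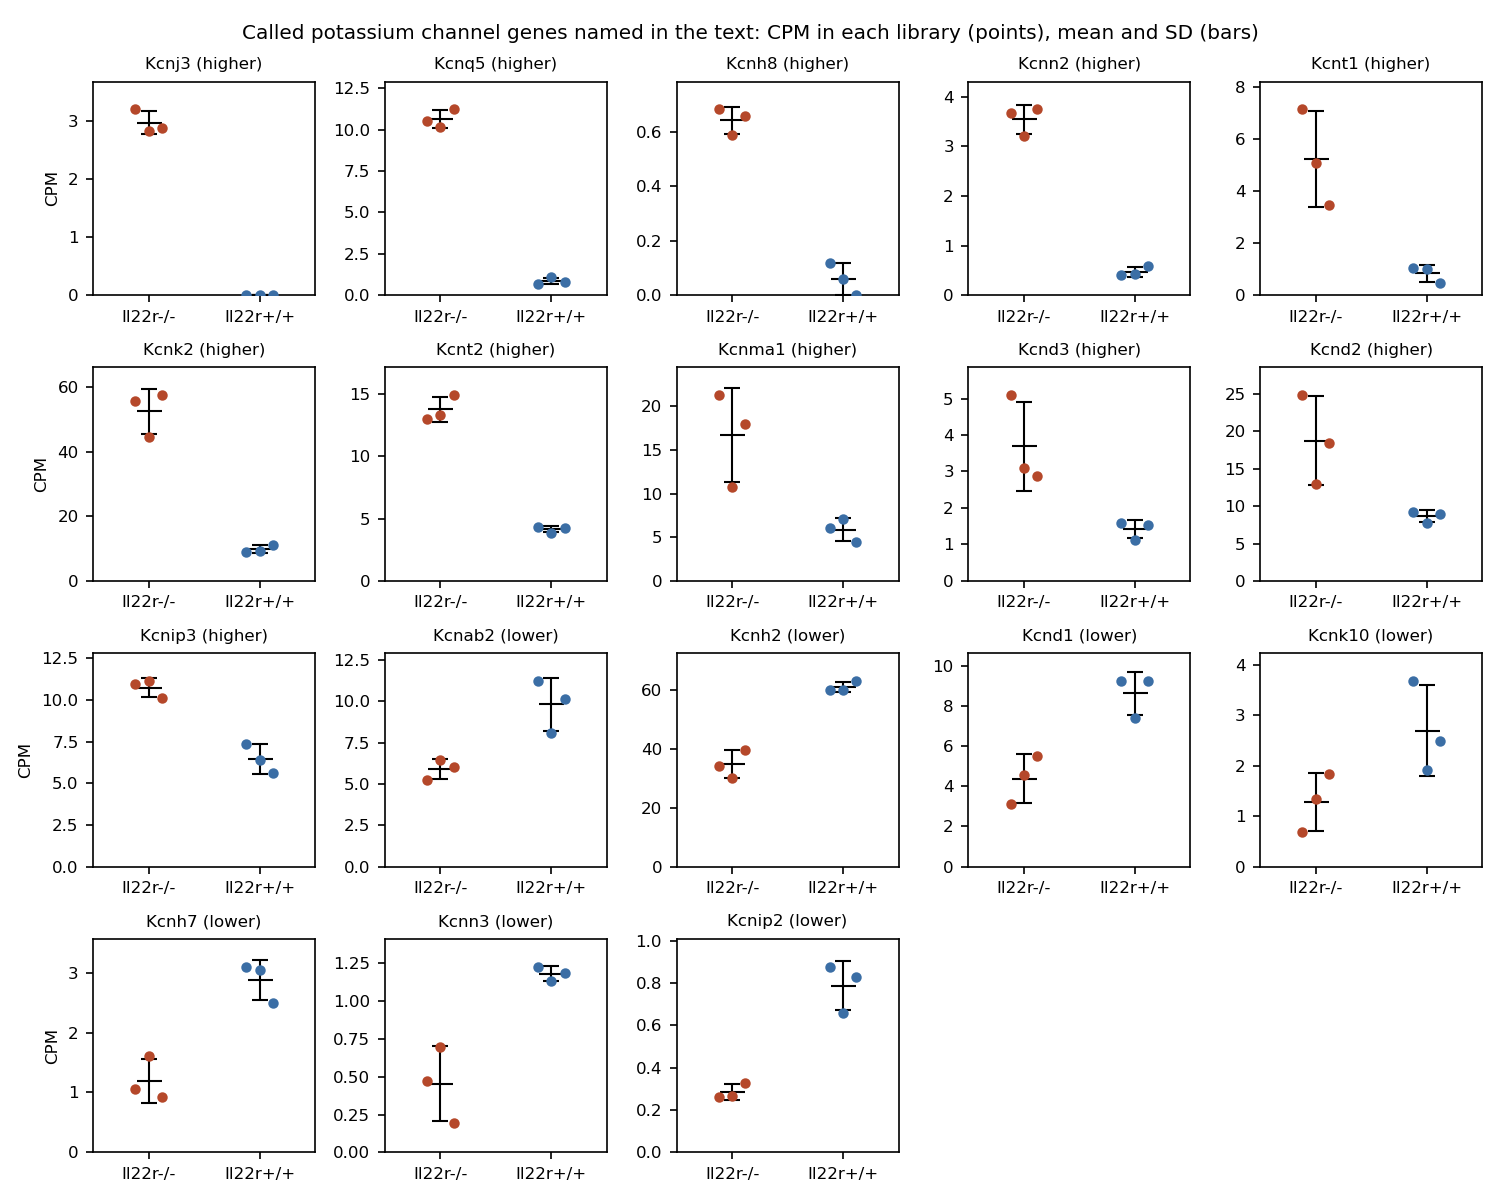
CPM (y axis, linear from 0, scaled per gene) in each library of the called members named in the text, Il22r-/- left of Il22r+/+, with points for libraries and bars for mean and SD. Kcnj3 has no read in any Il22r+/+ library. The points of the 2 genotypes overlap in none of these called genes, and do not overlap in 56% of all tested genes.

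The voltage-gated pore subunits were the largest family, with 15 of 30 genes expressed and 11 tested. They moved in both directions, with 4 called higher, 4 called lower and 3 not called. Called were 72.7% of these 11, against 45.7% of all tested genes, and 11 genes are few for such a share. Kcnq5, a pore of the slowly activating M-type current, rose most. Kcnq5 (ENSMUSG00000028033, chromosome 1, 21398403 to 21961942 in mm10) measured 10.5, 10.2 and 11.2 CPM in Il22r-/- replicates 1 to 3, against 0.702, 1.07 and 0.77 CPM in Il22r+/+ replicates 1 to 3. All Il22r-/- libraries lay far above all Il22r+/+ libraries, with a log2 fold change of 3.64 ± 0.22 (SE) or 12.4-fold (edgeR adjusted p = 8.76e-07). Per length, in FPKM, Kcnq5 ranked 11th among the members in Il22r-/- and 35th in Il22r+/+. It made up 75.5% ± 1.16 of the summed FPKM of Kcnq1 to Kcnq5 in Il22r-/- and 19.9% ± 3.63 in Il22r+/+ (SD, n = 3 each).

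Kcnc2, a fast-deactivating pore best known from rapidly firing neurons, measured 26.0, 20.5 and 20.8 CPM in Il22r-/- and 18.9, 18.9 and 16.8 CPM in Il22r+/+. The groups did not overlap, but the gene was not called (log2 fold change 0.30 ± 0.12, adjusted p = 0.066). With library size alone as the scaling it was called (0.41, edgeR adjusted p = 0.0229), as it was without Il22r-/- replicate 3 (0.33, adjusted p = 0.0338).

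Kcnh2, the pore of the delayed rectifier current that repolarises the heart, was the voltage-gated gene with the highest level per length and fell. Kcnh2 (ENSMUSG00000038319, chromosome 5, 24319589 to 24351604) measured 34.3, 30.3 and 39.7 CPM in Il22r-/-, against 60.1, 60.1 and 63.2 CPM in Il22r+/+. No Il22r-/- library reached the lowest Il22r+/+ library, and the log2 fold change was -0.82 ± 0.10, 1.76-fold lower (edgeR adjusted p = 0.000101). Kcnh7, of the same ERG-type subgroup, fell to 1.05, 1.60 and 0.92 CPM in Il22r-/-, against 3.10, 3.04 and 2.49 CPM in Il22r+/+ (log2 fold change -1.26 ± 0.30, adjusted p = 0.00566). Kcnh8, of the ELK-type subgroup, rose at a level close to the limit of detection, with 13, 11 and 10 reads in Il22r-/- and 2, 1 and 0 reads in Il22r+/+ (adjusted p = 0.00331). The ratio of the pooled CPM of Kcnh8 was 10.8, with a 95% exact interval of 3.41 to 55.2 that covers counting error only, and the fitted log2 fold change was 3.29 ± 0.71 (SE) and 4.13 without Il22r+/+ replicate 1. Kcnh2 still made up 94.4% ± 1.56 of the summed Kcnh FPKM in Il22r-/- and 96.9% ± 0.322 in Il22r+/+ (SD, n = 3 each).

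All 3 Kcnd genes, which encode the pores of the fast-inactivating A-type current, were called, as were 45.7% of all tested genes. They did not move together. Kcnd2 rose, at 24.8, 13.0 and 18.4 CPM in Il22r-/- and 9.24, 7.76 and 8.94 CPM in Il22r+/+ (log2 fold change 1.11 ± 0.22, edgeR adjusted p = 0.00242). Kcnd3 rose as well, at 5.09, 3.09 and 2.89 CPM in Il22r-/- and 1.58, 1.13 and 1.54 CPM in Il22r+/+ (1.38 ± 0.30, adjusted p = 0.00383). Kcnd1 fell, at 3.10, 4.54 and 5.52 CPM in Il22r-/- and 9.24, 7.40 and 9.24 CPM in Il22r+/+ (-0.98 ± 0.22, adjusted p = 0.00438). In none of the 3 genes did the genotypes overlap, which was also the case in 56% of all tested genes. Kcnd1 contributed 9.87%, 23.2% and 21.2% of the summed Kcnd FPKM in Il22r-/- replicates 1 to 3, against 47.2%, 46.3% and 48.0% in Il22r+/+, and Kcnd2 74.0% ± 6.66 in Il22r-/- and 48.6% ± 1.10 in Il22r+/+ (SD, n = 3 each). In Il22r-/- replicate 1 Kcnd2 and Kcnd3 were highest and Kcnd1 was lowest of the 3 libraries.

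Kcna4, Kcna7, Kcnh1 and Kcnq1 were expressed but had too few reads for the main test. Fitted over all genes with at least 30 reads, a filter blind to genotype that called 42.3% of genes, none of these 4 was called, and the lowest adjusted p was 0.0509 for Kcna4, which counted 12, 16 and 7 reads in the Il22r-/- libraries and 6, 0 and 0 in the Il22r+/+ libraries. Kcna4 was called without Il22r-/- replicate 3 or Il22r+/+ replicate 1. It was also called in the fit without a filter on low counts, in which calls of low genes carry little weight. The summed FPKM of the family was 19.9, 16.5 and 19.9 in Il22r-/- and 24.5, 23.7 and 24.0 in Il22r+/+. The Il22r-/- sums were all below the Il22r+/+ sums, and Kcnh2 alone averaged 7.25 ± 1.04 FPKM in Il22r-/- and 13.0 ± 0.392 FPKM in Il22r+/+ (SD, n = 3 each). Among the silent subunits, which form no channel of their own, only Kcnf1 of 10 genes was expressed, at 0.798 CPM in Il22r-/- and 0.672 CPM in Il22r+/+ on average, and it was not called (adjusted p = 0.688).

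**Figure D3:**
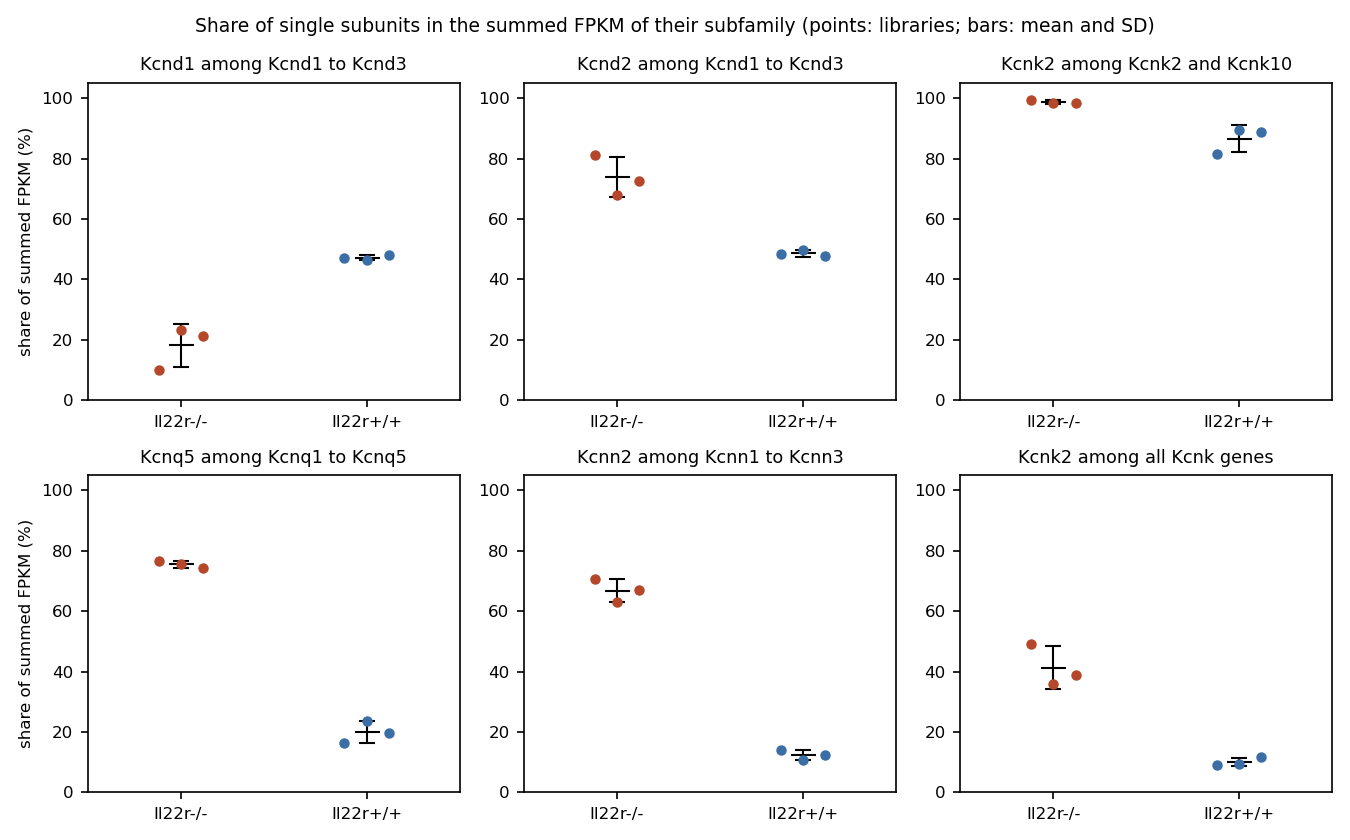
Share (percent of summed FPKM) of 1 gene within its subfamily in each library, Il22r-/- left of Il22r+/+, with points for libraries and bars for means. The shares of Kcnq5, Kcnn2 and Kcnk2 are higher and that of Kcnd1 lower in all 3 Il22r-/- libraries than in any Il22r+/+ library.

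The auxiliary subunits held Kcnab3, a cytoplasmic beta subunit of voltage-gated channels and the member with the highest level per length averaged over the 6 libraries (15.8 FPKM). In CPM it measured 62.2, 51.5 and 34.9 CPM in Il22r-/- and 37.4, 40.9 and 39.9 CPM in Il22r+/+. The lowest Il22r-/- library, replicate 3, lay below every Il22r+/+ library, and the gene was not called (log2 fold change 0.33 ± 0.18, adjusted p = 0.174). Without Il22r-/- replicate 3, the library with the fewest reads, it was called at 0.51 (edgeR adjusted p = 0.000293). Its relative Kcnab1 measured 40.9, 64.7 and 71.8 CPM in Il22r-/- and 59.9, 50.5 and 59.7 CPM in Il22r+/+ and was not called either (0.06 ± 0.20, adjusted p = 0.833). Kcnab2, the remaining beta subunit, fell to 5.25, 6.46 and 6.04 CPM in Il22r-/-, against 11.2, 8.06 and 10.1 CPM in Il22r+/+ (-0.73 ± 0.17, adjusted p = 0.00618).

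The Kcnip genes encode calcium-binding proteins that bind Kcnd pores, and of the 3 tested 1 was called higher and 1 lower. Kcnip3, which is also known as a calcium-dependent transcriptional repressor, measured 11.0, 11.2 and 10.1 CPM in Il22r-/- and 7.37, 6.38 and 5.63 CPM in Il22r+/+. Its groups did not overlap (log2 fold change 0.73 ± 0.15, edgeR adjusted p = 0.00286). Kcnip2 had 5 reads in each Il22r-/- library and 15, 11 and 14 reads in the Il22r+/+ libraries (-1.45 ± 0.44, adjusted p = 0.0197), a call that ended in 4 of the 6 fits that left out 1 library, at adjusted p 0.0716 and 0.0693 without Il22r-/- replicates 1 and 2 and 0.0705 and 0.0606 without Il22r+/+ replicates 1 and 3. Kcnip4 averaged 1.69 CPM in Il22r-/- and 1.62 CPM in Il22r+/+ and was not called (adjusted p = 0.901). The single-span modulators Kcne3 and Kcne4 were not called either, at adjusted p = 0.474 and 0.231, and Kcne4 ranged from 0.160 to 0.788 CPM in Il22r-/- and from 0.237 to 1.35 CPM in Il22r+/+. Kcne4 had a log2 fold change of -1.12 ± 0.72, and without Il22r-/- replicate 3 it was called at -2.10 (adjusted p = 0.0344), while without Il22r+/+ replicate 1 it stood at -0.53 (adjusted p = 0.652). In all, 3 of 8 tested auxiliary genes were called, or 37.5%, against 45.7% of all tested genes.

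The calcium- or sodium-activated channels had 4 of 8 tested members called higher, 1 lower and 3 not called. Called were 62.5% of the 8, against 45.7% of all tested genes, and 8 genes are few for such a share. The sodium-activated pores Kcnt1 and Kcnt2 both rose. Kcnt2 measured 13.0, 13.3 and 14.9 CPM in Il22r-/- and 4.33, 3.88 and 4.26 CPM in Il22r+/+ (log2 fold change 1.72 ± 0.15, edgeR adjusted p = 8.54e-06). Kcnt1 measured 7.14, 5.07 and 3.48 CPM in Il22r-/- and 1.05, 1.01 and 0.474 CPM in Il22r+/+ (2.62 ± 0.37, adjusted p = 0.000229). Kcnt1 varied more between the Il22r-/- libraries than Kcnt2, and neither gene overlapped between genotypes.

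Kcnn2, a small-conductance calcium-activated pore, rose while its relative Kcnn3 fell. Kcnn2 measured 3.68, 3.20 and 3.74 CPM in Il22r-/- and 0.409, 0.418 and 0.592 CPM in Il22r+/+ (log2 fold change 2.88 ± 0.30, 7.38-fold, edgeR adjusted p = 3.48e-05). Kcnn3 had 0.473, 0.694 and 0.197 CPM in Il22r-/- and 1.23, 1.13 and 1.18 CPM in Il22r+/+ (-1.33 ± 0.44, adjusted p = 0.0294). The call of Kcnn3 rested on 85 reads in all and ended without any 1 of 5 libraries, at adjusted p between 0.0612 and 0.0849 without Il22r-/- replicate 1 or 3 or any Il22r+/+ replicate. Kcnn1 averaged 0.88 ± 0.16 CPM in Il22r-/- and 1.56 ± 0.541 CPM in Il22r+/+ (SD, n = 3 each) and was not called (adjusted p = 0.0927). Kcnn2 made up 70.5%, 62.9% and 66.9% of the summed FPKM of Kcnn1 to Kcnn3 in Il22r-/-, against 14.1%, 10.8% and 12.3% in Il22r+/+.

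Kcnma1, the pore of the large-conductance calcium- and voltage-activated channel, was higher in Il22r-/-, and so was its smooth muscle beta subunit Kcnmb1. Kcnma1 (ENSMUSG00000063142, chromosome 14, 23289431 to 24014491) measured 21.27, 10.72 and 17.997 CPM in Il22r-/- and 6.02, 7.04 and 4.44 CPM in Il22r+/+ (log2 fold change 1.51 ± 0.27, edgeR adjusted p = 0.00158). Kcnmb1 had 11, 23 and 7 reads in Il22r-/- and none in Il22r+/+, at least 13.1-fold higher against a floor of 3 reads over the Il22r+/+ group. It did not pass the filter of the main test and was called in the fit over genes with at least 30 reads (edgeR adjusted p = 0.00177). Kcnmb4, the beta subunit best known from brain, had 46, 9 and 16 reads in Il22r-/- and 7, 11 and 10 reads in Il22r+/+ and was not called (1.25 ± 0.57, adjusted p = 0.0978), although it was without Il22r-/- replicate 2 (1.64, adjusted p = 0.0221). Without Il22r-/- replicate 1, which held 46 of its 71 Il22r-/- reads, the log2 fold change was 0.43 (adjusted p = 0.575). Its exons share 20.8% of their length with Kcnmb4os2 on the other strand, which had 8, 1 and 1 reads in the Il22r-/- libraries and 0, 1 and 1 in the Il22r+/+ libraries. Kcnu1, known for its sperm-specific role, averaged 1.51 CPM in Il22r-/- and 1.203 CPM in Il22r+/+ and was not called (adjusted p = 0.461). Among the smooth muscle markers, Myh11 averaged 13.9 ± 5.34 CPM in Il22r-/- and 0.706 ± 0.516 CPM in Il22r+/+, and Tagln 3.25 ± 0.374 CPM in Il22r-/- and 6.35 ± 1.17 CPM in Il22r+/+ (SD, n = 3 each), and the part of such cells in the Kcnma1 and Kcnmb1 values was not tested. Over Il22r-/- replicates 1 to 3 the smooth muscle marker sums were 369.5, 602.5 and 589.8 CPM, and Kcnmb1 stood at 0.578, 1.23 and 0.460 CPM. Kcnma1 was lowest in replicate 2, where Kcnmb1 was highest. The smooth muscle sum joins markers that were called in both directions, 5 higher and 2 lower. The family as a whole summed to 6.13, 4.73 and 5.36 FPKM in Il22r-/- and 2.01, 2.48 and 2.18 FPKM in Il22r+/+.

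The inward rectifiers had few reads, with 5 of 15 genes expressed and 3 tested. Kcnj3, a pore opened by G protein beta-gamma subunits, had 61, 53 and 44 reads in Il22r-/- and no read in any Il22r+/+ library. Kcnj3 (ENSMUSG00000026824, chromosome 2, 55435970 to 55598145) reached 3.20, 2.83 and 2.89 CPM in Il22r-/-, at least 50.4-fold higher against a floor of 3 reads over the Il22r+/+ group (edgeR adjusted p = 2.17e-05). Of 16701 genes with at least 30 reads in the series, 14 had no Il22r+/+ read, which is 0.0838%, and Kcnj3 and Kcnmb1 were 2 of them. The genes of its channel partners were close to undetected, Kcnj5 and Kcnj9 with 2 reads each and Kcnj6 with 1, all in Il22r-/- libraries. The exons of Kcnj3 share 31.1% of their length with Gm26794 on the other strand, a gene not analysed here, and whether counting used strand is not given in the sources used here. Kcnj2 and Kcnj4, strong inward rectifiers that stabilise the resting potential, were not called, Kcnj2 at 4.33 ± 0.612 CPM in Il22r-/- and 3.05 ± 1.40 CPM in Il22r+/+ (adjusted p = 0.212) and Kcnj4 at 1.57 ± 0.226 CPM in Il22r-/- and 1.48 ± 0.194 CPM in Il22r+/+ (SD, n = 3 each; adjusted p = 0.839). Kcnj2 was called without Il22r+/+ replicate 3, its highest library of that genotype (0.92, adjusted p = 0.03).

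Kcnj8, the pore of a vascular ATP-sensitive channel, lay below the expression threshold with 2, 15 and 0 reads in Il22r-/- and none in Il22r+/+. Its regulatory subunit Abcc9 had 7, 36 and 2 reads in Il22r-/- and 0, 1 and 0 reads in Il22r+/+. Both were highest in Il22r-/- replicate 2. In that replicate the smooth muscle (602.5 CPM), macrophage (89.0 CPM), theca and stroma (282.6 CPM) and endothelial (11.6 CPM) marker sums were all highest among the Il22r-/- libraries, while replicate 3 had nearly as high a smooth muscle sum (589.8 CPM) with 0 Kcnj8 and 2 Abcc9 reads, and the part of these cells in the values was not tested. Neither gene passed the filter of the main test. Abcc9 was called over genes with at least 30 reads (edgeR adjusted p = 0.0156). Kcnj8, with 15 of its 17 reads in Il22r-/- replicate 2, was called only in the fit without a filter on low counts. That fit took the edgeR adjusted p of Kcnk2 from 5.36e-07 to 3.36e-88, while Kcnip2 lost its call. Calls of low genes in it carry little weight. Over all 94 members, 13 had reads only in Il22r-/- libraries and 5 only in Il22r+/+ libraries, and apart from Kcnj3 and Kcnmb1 none of these had over 17 reads. The expressed members Kcnn4, Kcnj14, Kcnj16 and Kcnrg, also too low for the main test, were not called over genes with at least 30 reads (edgeR adjusted p = 0.487, 0.294, 0.609 and 0.916). Of all genes with at least 30 reads, 0.0359% had no Il22r-/- read, and no member was among them.

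The two-pore-domain channels, which carry background potassium current, included the second and the fourth most abundant members per length over the 6 libraries. Kcnk2, a channel opened by membrane stretch, fatty acids and warmth, rose in all Il22r-/- libraries. Kcnk2 (ENSMUSG00000037624, chromosome 1, 189207930 to 189402273) measured 55.7, 44.7 and 57.6 CPM in Il22r-/- and 9.07, 9.13 and 11.3 CPM in Il22r+/+. The groups lay far apart, with a log2 fold change of 2.42 ± 0.13 or 5.36-fold (edgeR adjusted p = 5.36e-07). The exons of Kcnk2 share 12.2% of their length with A430027H14Rik on the other strand, which had 17, 9 and 16 reads in Il22r-/- and 11, 7 and 2 reads in Il22r+/+. Its close relative Kcnk10 fell to 0.683, 1.33 and 1.84 CPM in Il22r-/-, against 3.68, 1.91 and 2.49 CPM in Il22r+/+ (-1.08 ± 0.39, adjusted p = 0.0423). That call ended with adjusted p between 0.0799 and 0.189 in 4 of the 6 fits without 1 library (Il22r-/- replicates 1 and 2 and Il22r+/+ replicates 1 and 3), and at 0.0571 with library size alone as the scaling.

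Kcnk1, a weakly conducting two-pore channel, measured 19.7, 31.3 and 33.6 CPM in Il22r-/- and 34.6, 35.4 and 32.1 CPM in Il22r+/+. The groups overlapped and the gene was not called (log2 fold change -0.28 ± 0.18, adjusted p = 0.231). Kcnk3, an acid-sensitive background channel, averaged 6.03 ± 2.42 CPM in Il22r-/- and 3.61 ± 0.416 CPM in Il22r+/+ (SD, n = 3 each) and was not called (0.73 ± 0.29, adjusted p = 0.0599), though it was without Il22r-/- replicate 2 (0.99, adjusted p = 0.00885). Kcnk5, opened by alkaline pH, averaged 3.11 ± 0.363 CPM in Il22r-/- and 4.39 ± 1.14 CPM in Il22r+/+ and was not called (SD, n = 3 each; adjusted p = 0.129), and was without Il22r+/+ replicate 2 (-0.69, adjusted p = 0.0423). Of the summed FPKM of Kcnk2 and Kcnk10, Kcnk2 made up 98.6% ± 0.595 in Il22r-/- and 86.6% ± 4.53 in Il22r+/+ (SD, n = 3 each). Kcnk2 made up 49.3%, 35.9% and 38.8% of the summed two-pore FPKM in Il22r-/-, against 9.11%, 9.36% and 11.6% in Il22r+/+. The family summed to 22.9, 25.4 and 30.6 FPKM in Il22r-/- and to between 20.2 and 20.7 FPKM in Il22r+/+.

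**Figure D4:**
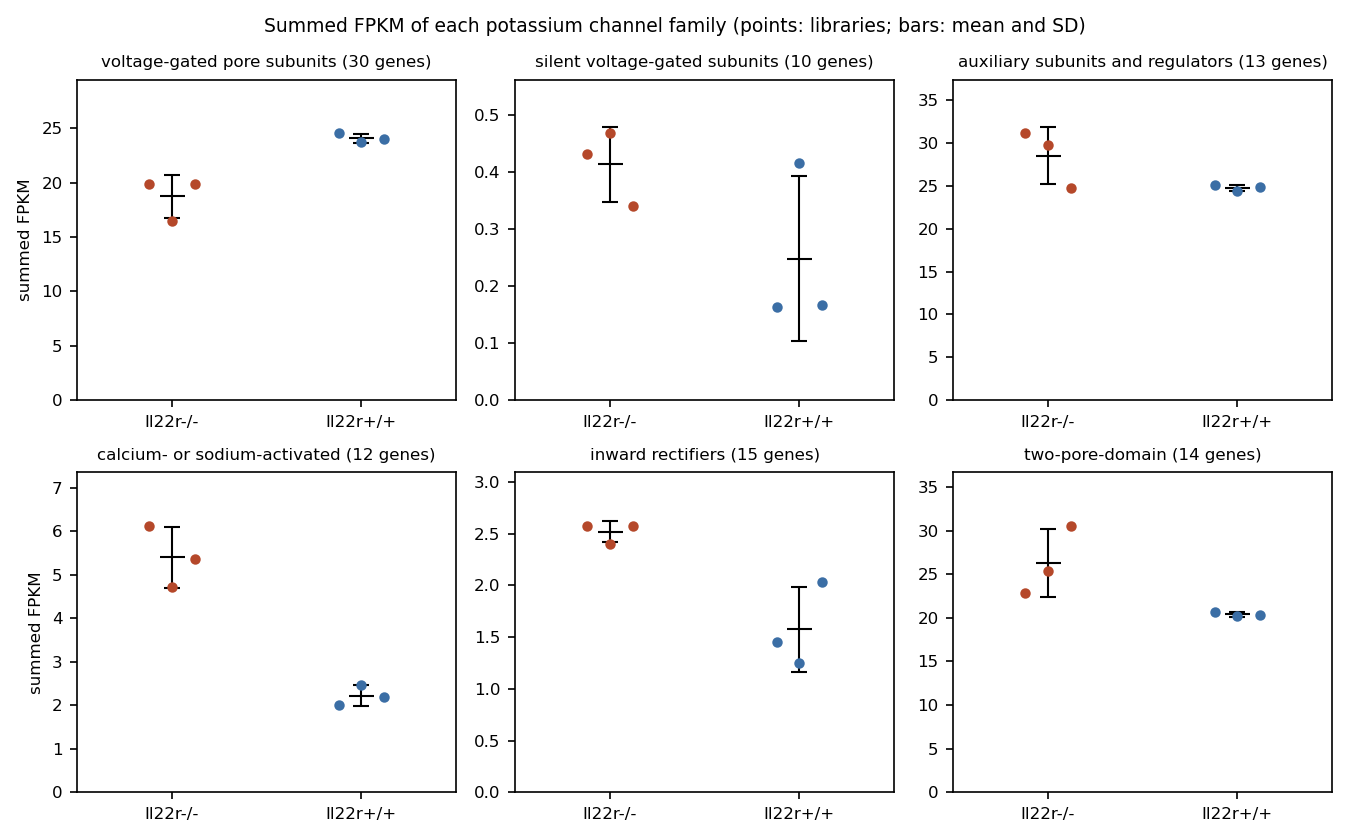
Summed FPKM of each potassium channel family in every library, Il22r-/- left of Il22r+/+, with points for libraries. The calcium- or sodium-activated sum lies between 4.73 and 6.13 FPKM in Il22r-/- and between 2.01 and 2.48 FPKM in Il22r+/+, and the voltage-gated sum is lower in all Il22r-/- libraries.

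Per length, the order at the top of the list differed between genotypes. In Il22r-/- the leading genes were Kcnab3 at 17.4 ± 4.69 FPKM, Kcnk1 at 12.7 ± 3.45 FPKM, Kcnk2 at 10.8 ± 1.45 FPKM and Kcnh2 at 7.25 ± 1.04 FPKM. In Il22r+/+ they were Kcnk1 at 15.7 ± 0.776 FPKM, Kcnab3 at 14.1 ± 0.623 FPKM, Kcnh2 at 13.0 ± 0.392 FPKM and Kcnab1 at 5.22 ± 0.505 FPKM (SD, n = 3 each). In Il22r-/- the libraries of Kcnab3, Kcnk1 and Kcnk2 overlapped between neighbours in that order, while Kcnh2 lay below them. In Il22r+/+ the lowest Kcnab3 library and the highest Kcnh2 library both stood at 13.4 FPKM, and those of Kcnk1 lay just above those of Kcnab3. Kcnk2 ranked 3rd in Il22r-/- and 7th in Il22r+/+. Summed over all 94 members, the level was 81.9 ± 2.35 FPKM in Il22r-/- and 73.3 ± 0.731 FPKM in Il22r+/+ (SD, n = 3 each).

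Among 16 subunits and relatives of potassium channels outside the Kcn symbols, 8 were tested, 5 were called lower, none higher and 3 were not called. Of all tested genes 45.7% were called, 23.6% higher and 22.1% lower, and 8 genes are few to set beside these shares. The median log2 fold change of the 8 was -0.40 against 0.03 over all genes. Dpp6, the membrane subunit that speeds the A-type current of Kcnd pores, fell most, to 3.50 ± 0.784 CPM in Il22r-/-, against 24.8 ± 5.28 CPM in Il22r+/+ (SD, n = 3 each; log2 fold change -2.84 ± 0.20, edgeR adjusted p = 2.65e-06). Hcn2, a pacemaker channel of the same superfamily, fell to 4.27 ± 0.385 CPM in Il22r-/-, against 8.28 ± 0.992 CPM in Il22r+/+ (-0.96 ± 0.18, adjusted p = 0.0013). The endolysosomal potassium channel gene Tmem175 fell to 19.9 ± 1.496 CPM in Il22r-/-, against 31.8 ± 1.43 CPM in Il22r+/+ (-0.68 ± 0.10, adjusted p = 0.000289), and Tmem38b, which encodes a cation channel of the endoplasmic reticulum, fell by 0.45 on the log2 scale (adjusted p = 0.0127). Among 23 genes of the sodium-potassium pump and of potassium cotransporters 14 were tested, with 3 called higher, 5 lower and 6 not called. The same shares of all genes are their background, and their median log2 fold change was -0.10. Fxyd6, a small regulator of the pump, had 36, 43 and 40 reads in Il22r-/- and 1, 0 and 2 reads in Il22r+/+ (edgeR adjusted p = 4.93e-05). The potassium-chloride cotransporters Slc12a5 and Slc12a4 fell, Slc12a5 to 2.83 ± 0.591 CPM in Il22r-/-, against 6.62 ± 0.960 CPM in Il22r+/+ (-1.22 ± 0.22, adjusted p = 0.00115), and Slc12a4 to 96.1 ± 8.16 CPM in Il22r-/-, against 165 ± 5.24 CPM in Il22r+/+ (-0.78 ± 0.08, adjusted p = 3.01e-05).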

How the data were processed

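RNA of granulosa cells from 3 Il22r-/- and 3 Il22r+/+ samples was sequenced with standard Illumina libraries, per the labels' protocols. The authors deposited raw read counts per gene, made with featureCounts 1.5.0-p3 on mm10 per the submitters' processing notes. No source used here names the aligner, the strand setting or the filters on reads. Deposited beside the counts were the authors' FPKM values, which equal count divided by gene length and by 1 constant per library of 0.936 to 1.05 times its total.

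Counts of all genes were filtered with filterByExpr by group, normalised with TMM factors and tested with the robust quasi-likelihood fit of edgeR 4.0.16 (R 4.3.3), genotype being the only term. P-values were adjusted over 15227 genes by the Benjamini-Hochberg method, and adjusted p under 0.05 is a call. Fold changes are Il22r-/- over Il22r+/+, with SE from the F statistic. CPM use the TMM-scaled totals. A gene without reads in a group was set against a floor of 3 reads over that group, and 95% intervals are exact and cover counting error only. The test was checked on simulated counts.

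Alternatives were DESeq2 1.42.0, limma 3.58.1 (voom, and log2(FPKM + 1) or log2(FPKM + 0.1)), other scalings and filters, a replicate block and each library left out. Values in every library are given for called members with a mean of at least 1 CPM, for the 6 members with the highest FPKM and for members with reads in 1 genotype only where they are expressed. The other members have 1 value each or a count. Some genes are counted in the totals and families but not reported here by name. Members, families and marker lists were chosen with earlier results of these data known. Exon overlaps come from GENCODE M21, in which 43 of 45 expressed members have the same start and end as in the deposited table, and promoter windows come from RefSeq.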

Additional observations from a re-analysis of the deposited data

How the results depend on the processing

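The 19 called of 36 tested members became 18 with DESeq2, 19 with limma-voom or with DESeq2 size factors and 20 with library size alone. All genes were called at 45.7% in the main test and at 43.8%, 45.6%, 45.6% and 47.4% in these settings, in that order. Without a filter 26 of 80 tested members were called, against 27.1% of all genes. Over genes with at least 30 reads it was 20 of 45, against 42.3%, and with a stricter filter 16 of 25, against 50.5%. Called were 17 of 36 with limma on log2(FPKM + 1) or log2(FPKM + 0.1), against 43.6% and 43.7% of all genes. With log2(FPKM + 1) and no filter 14 of 80 were called, against 19.4%. Without a filter 18 members were called higher, against 11 in the main test, and on log2(FPKM + 1) without a filter 4 were called lower, against 8. With 1 library left out, 16 to 23 of 38 to 42 tested members were called, 11 to 15 of them higher and 5 to 8 lower. The share of all genes called was then 34.4% to 52.6%, and 39 to 44 members reached 30 reads. A threshold of 10 reads gave 58 expressed members and one of 100 reads gave 30.

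Library size alone moved the median log2 fold change of all genes by 0.103, and 63.6% of all calls were then higher in Il22r-/-, against 51.6% with TMM. Among the members 13 were then higher and 7 lower. Kcnk10, Kcnn3 and Kcnip2 are the calls that depended most on the setting. Kcnd3 and Kcnh7 lost their calls on log2(FPKM + 1) without a filter (adjusted p 0.103 and 0.135, limma), and Kcnh8 did not pass the stricter filter. The named genes that changed sign were never called. They were Kcnab1 with log2(FPKM + 0.1) (-0.00124) and with 1 library left out (-0.12 to 0.26), and, with left-out libraries, Kcnj4 (-0.034 to 0.18), Kcnip4 (-0.17 to 0.21) and Kcnf1 (-0.00433 to 0.85). The cause was not tested.

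The replicate numbers of the titles pair nothing in the labels, and deviations of same-numbered libraries correlated at 0.026, -0.0406 and -0.0278. With the replicate block 19 of 36 members were called, 12 higher and 7 lower, against 42.1% of all genes. Kcnk10 was lost (edgeR adjusted p = 0.0714) and Kcnk3 gained (0.68, adjusted p = 0.0498). Depth limits the 9 expressed members that were not tested and the members below 1 CPM.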

Other observations

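Near the limit of detection, the members with reads in Il22r-/- libraries only included Kcns3, a silent voltage-gated subunit, with 3, 10 and 2 reads, Kcnc4 with 3, 3 and 2 reads and Kcnk13 with 4, 1 and 3 reads. These genes lay below the expression threshold. In the fit without a filter on low counts, where calls of such genes carry little weight, Kcns3 was called, and Kcnc4 and Kcnk13 were not.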
